A study of Homo sapiens with 10 samples.

Results

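GDF15 and 8 further genes known as transcriptional targets of p53 (MDM2, PLK2, BTG2, FAS, TP53I3, RRM2B, SESN1 and ZMAT3) were followed through a time course of dibutyryl cAMP, which enters cells and acts like the second messenger cAMP on protein kinase A. The 9 genes were listed by symbol among 20379 genes of the deposited table. They were selected on their levels at all 5 times in both lines, with earlier results of these libraries in view, so their own values are given as a description, with no test. Polyadenylated RNA of DBTRG-05MG and U87 cells was sequenced at 0, 6, 12, 24 and 48 h of 1 mM dibutyryl cAMP. Both are established lines from human glioblastoma. The 0 h libraries were the only controls, and 1 library stood for each line and time, 10 in all and with no replicates. No untreated library was taken at a later time, so time in culture and treatment cannot be told apart. In bulk RNA, fewer cells that express a gene and less of its RNA per cell cannot be told apart either.

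p53 is a transcription factor that is held low by its own target MDM2 and stabilised by DNA damage and other stress. Its targets arrest the cell cycle, repair DNA, adjust metabolism or prepare the cell for apoptosis. Several of them, GDF15 above all, also answer to other factors, including ATF4 and DDIT3 (CHOP) of the integrated stress response.

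Values are FPKM, which corrects fragment counts for the length of the transcript and the depth of the library, a unit inferred from the values. Changes within a line are differences of log2(FPKM + 1) from the 0 h library, a scale that understates changes of low genes. All 9 genes were among the 12352 that averaged 1 FPKM or more over the libraries, which form the background throughout. Relative to the DBTRG-05MG 0 h library, with about 8.87 M fragments as estimated from 736 genes, the other libraries had a depth of up to 116.8%. VIM, CD44, TNC and NES, which mark mesenchymal and progenitor-like glioma cells, reached at least 4.94 FPKM in all 10 libraries, whereas the astrocyte markers GFAP and S100B did not exceed 0.508 FPKM. The 8 glioma markers together summed to 2743, 2725, 2210, 1656 and 1339 FPKM over the DBTRG-05MG course, lower at each time alongside the changes given here, and to 6576 to 7811 FPKM in U87. VIM was the largest, at 865.5 to 2170 FPKM across the DBTRG-05MG libraries, so the sums mainly follow this gene. Counted by gene, 1 of the 5 tested was at least 2-fold lower at 48 h in that line, and 0 were 2-fold higher. The part of these markers in those changes was not tested. SOX2 stood between 23.0 and 36.6 FPKM in DBTRG-05MG and was listed at 0 in every U87 library. Of 13 markers of leukocytes, endothelium, epithelium, neurons and oligodendrocytes, SYT1 and MBP were the 2 above 1 FPKM in all libraries, and the list summed to 13.8 to 16.3 FPKM in DBTRG-05MG libraries and 5.33 to 7.99 FPKM in those of U87. A list of 9 heat shock and immediate early genes, which handling can raise, summed to 2083 FPKM in the DBTRG-05MG 0 h library, 1519 FPKM at 6 h and 800 to 882 FPKM later. In U87 it summed to 1202 FPKM at 24 h and to 676 to 888 FPKM at the other times. The largest member was HSPB1, at 518.5 to 1742 FPKM across the DBTRG-05MG libraries, so the sums mainly follow this gene. Counted by gene in that line, 3 of the 8 tested were at least 2-fold higher at 6 h than at 0 h, and 0 were 2-fold lower. At 12 h these counts were 1 higher and 2 lower, and at 24 and 48 h 1 and 1. Every DBTRG-05MG change is against the 0 h library of that line, and the part of that library in those changes was not tested.

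The 9 genes did not move as a group. GDF15 was far higher at 48 h in both lines, FAS was lower in both, and PLK2 and RRM2B went opposite ways in the 2 lines. MDM2, BTG2, SESN1 and TP53I3 stayed within 2-fold of their start in both lines on the log2(FPKM + 1) scale. At 48 h, 2 genes were higher in both lines (GDF15 and ZMAT3), 4 were lower in both (FAS, TP53I3, BTG2 and MDM2) and 3 differed in direction. The share of all genes with such directions was not counted, so nothing is read from these counts. Some directions rest on very small changes, as for MDM2 (-0.038) and SESN1 (0.003) in DBTRG-05MG. That of BTG2 in U87 rests on about 14 and 25 fragments if the longest transcript is assumed. After median centring of the libraries the small U87 values of TP53I3 and SESN1 at 48 h turned sign. Over the 9 genes the median change at 48 h was -0.04 in DBTRG-05MG and -0.16 in U87, beside 0.02 and -0.15 over all genes tested.

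**Figure D1:**
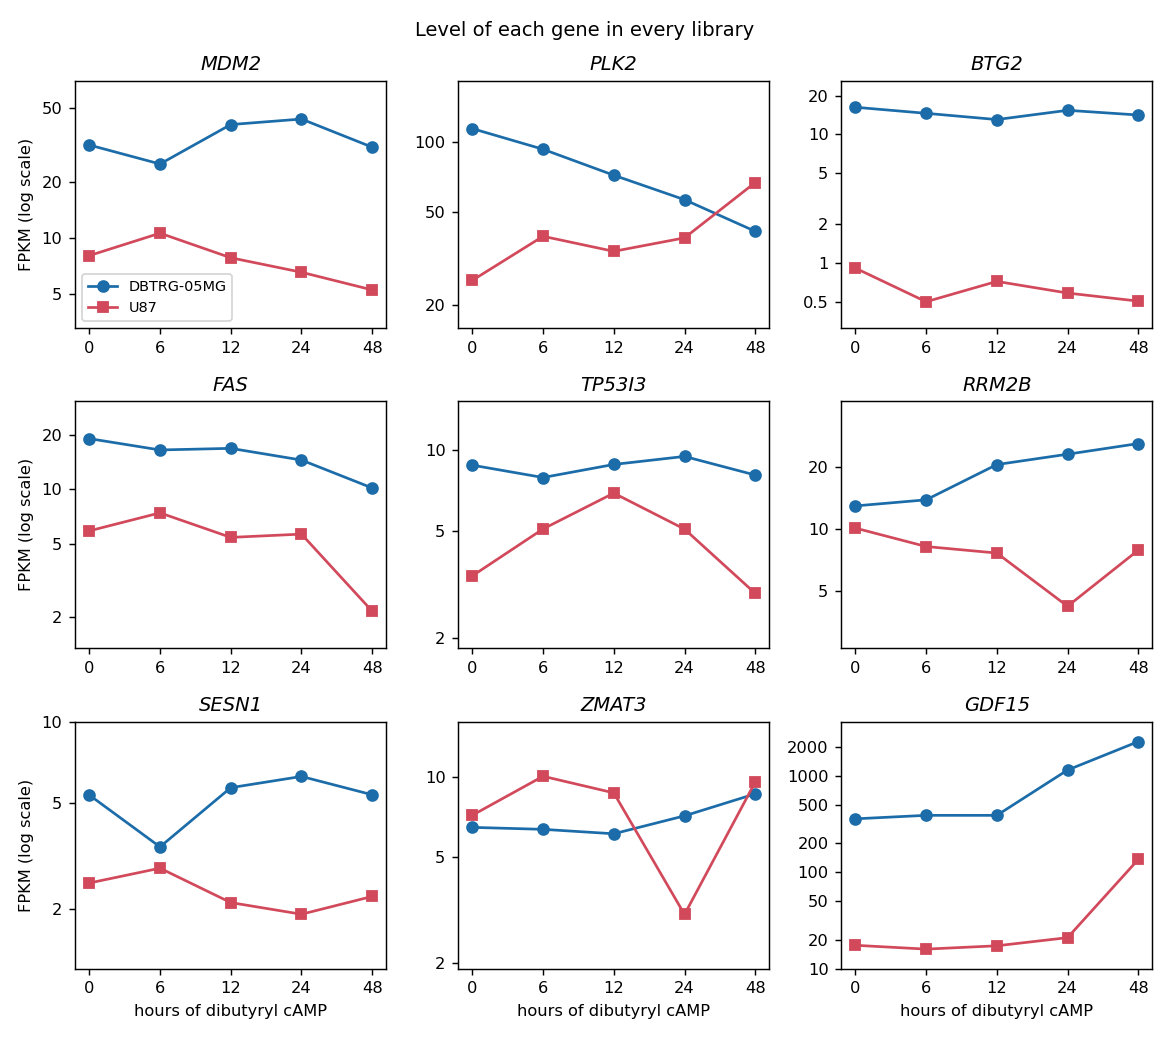
FPKM (log axis) of each of the 9 genes in the 10 libraries, against hours of dibutyryl cAMP at equal spacing; each point is 1 library, blue circles DBTRG-05MG and red squares U87. GDF15 reaches 2276 FPKM (DBTRG-05MG) and 136 FPKM (U87) at 48 h, PLK2 crosses over between the lines, and ZMAT3 and RRM2B dip in the U87 24 h library.

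GDF15 encodes growth differentiation factor 15, a stress-induced cytokine of the TGF-beta superfamily that is secreted after cleavage of a precursor. The gene lies on chromosome 19 (18374731 to 18389176, plus strand, GRCh38). In DBTRG-05MG it stood at 359.5 FPKM at 0 h, 390.8 FPKM at 6 h, 390.5 FPKM at 12 h, 1153 FPKM at 24 h and 2276 FPKM at 48 h. The first 3 libraries were close together, and those of 24 and 48 h stood far above them. In U87 it stood at 17.5, 16.0, 17.3, 21.04 and 136 FPKM at the same times. Here the 24 h library was still near the start, and only the 48 h library stood apart. The 48 h level was 6.33 times the 0 h level in DBTRG-05MG and 7.78 times in U87. On the log2(FPKM + 1) scale the 48 h changes were 2.66 and 2.89, with a mean over both lines of 2.78 ± 0.36 (SE of the fit, n = 2 lines, no test). In all, 0.567% of the genes tested were at least 2-fold higher in both lines at 48 h. Over all times the DBTRG-05MG libraries lay above the U87 libraries, with a ratio of 24.2 between the geometric means of FPKM + 1.

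The factors known to act on GDF15 outside p53 were followed beside it. DDIT3, the stress transcription factor CHOP, stood at 60.8, 45.5, 92.7, 226 and 262 FPKM in DBTRG-05MG and at 15.4, 12.7, 15.8, 20.1 and 26.9 FPKM in U87. Like GDF15, it was already over 3-fold above its start at 24 h in DBTRG-05MG and less than 2-fold above it in U87. At 48 h in U87 the lot of the 2 genes differed, with changes of 0.765 for DDIT3 and 2.89 for GDF15. The mean change of DDIT3 at 48 h was 1.43 ± 0.40 (SE, limma adjusted p = 0.208). ATF3, another stress factor and also a cAMP target, was higher at every later time in both lines. It stood at 5.58 FPKM at 0 h and 26.1 FPKM at 48 h in DBTRG-05MG, and at 3.41 and 9.93 FPKM in U87 (mean change 1.68 ± 0.40, limma adjusted p = 0.166). It did not follow GDF15 in U87, where it peaked at 14.2 FPKM at 12 h and stood at 4.84 FPKM at 24 h. ATF4, whose protein is mainly set by translation, stood at 211 FPKM and then 314 FPKM in DBTRG-05MG at 0 and 48 h, and at 135 and 142 FPKM in U87 (limma adjusted p = 0.605). FURIN, a protease that cleaves precursors of the TGF-beta superfamily, stayed between 125 and 160 FPKM in DBTRG-05MG. Its range in U87 was 71.8 to 104 FPKM. Of the 12 genes tested, which were 8 regulators, FURIN and 3 stress targets, 10 were higher in both lines at 24 h and 7 at 48 h. The medians of that list at 24 h were 1.42 in DBTRG-05MG and 0.35 in U87, beside 0.05 and -0.15 over all genes. By limma with Benjamini-Hochberg adjustment 0 of the 12 passed at any time. At an unadjusted p under 0.05, 6 were higher at 24 h and 5 at 48 h, beside 3.51 and 12.2% of all genes in either direction. This list too was drawn up with earlier results of these libraries in view, so nothing is read from its counts.

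**Figure D2:**
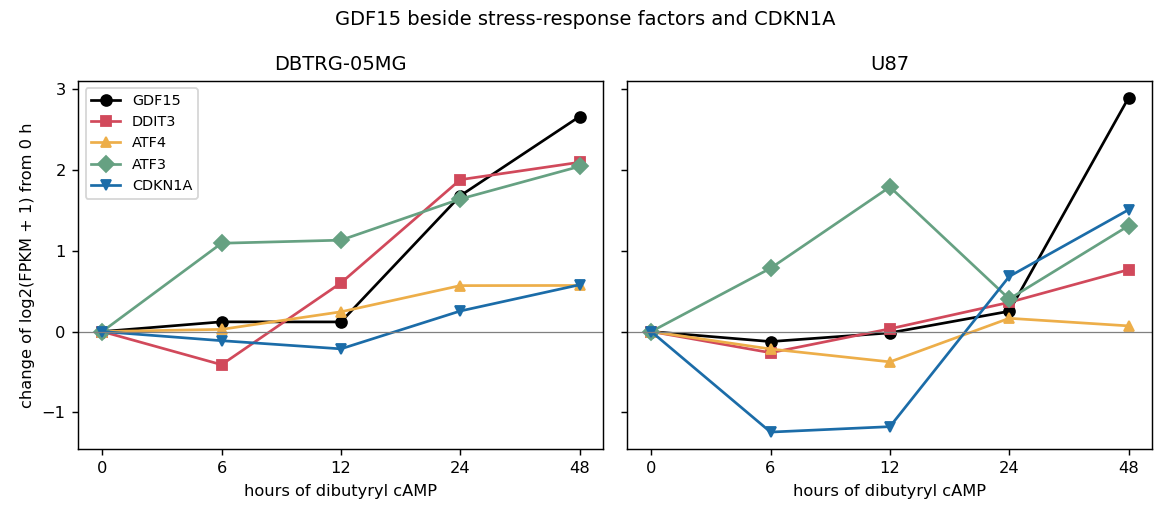
Change of log2(FPKM + 1) from 0 h for GDF15, DDIT3, ATF4, ATF3 and CDKN1A in DBTRG-05MG (left) and U87 (right), against hours of dibutyryl cAMP at equal spacing; each point is 1 library. In DBTRG-05MG GDF15 and DDIT3 stand at 1.68 and 1.88 at 24 h, whereas in U87 GDF15 stands at 0.25 at 24 h and 2.89 at 48 h and CDKN1A stands at -1.24 at 6 h and 1.51 at 48 h.

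By likeness of pattern, the genes nearest to GDF15 were POFUT2, PRR24, ARL3, SLC2A3 and MRC2, with Pearson r from 0.96 to 0.97. The measure was r over the 10 libraries after centring each line, among 8406 genes averaging 5 FPKM or more. The libraries share lines and the high 48 h pair weighs heavily in it, so the values are a description. SLC2A3, which encodes the glucose transporter GLUT3, stood in DBTRG-05MG at 20.4 FPKM at 0 h, 31.1 FPKM at 24 h and 46.3 FPKM at 48 h. In U87 its levels at those times were 12.2, 10.7 and 28.6 FPKM. None of these 5 was a listed p53 target. Among the other 7 of the 9 genes that were ranked, r with GDF15 ran from -0.94 for FAS to 0.43 for RRM2B. SESN1 was too low to be ranked.

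FAS encodes the death receptor CD95, which starts apoptosis when bound by its ligand. The gene lies on chromosome 10 (88990582 to 89015785, plus strand). In DBTRG-05MG it stood at 19.0, 16.5, 16.8, 14.5 and 10.2 FPKM at 0, 6, 12, 24 and 48 h. All 4 later libraries were below the start, and the 48 h library was the lowest. In U87 it stood at 5.91, 7.43, 5.44, 5.67 and 2.14 FPKM, with 48 h again the lowest after 3 middle libraries on either side of the start. The 48 h changes were -0.84 and -1.14. The share of genes at least 2-fold lower at 48 h was 5.16% in DBTRG-05MG and 4.32% in U87, and FAS was among them in U87 alone, where it no longer was after each library was centred on its median (-0.90). The 5 genes most like FAS over the libraries were KAT6A, WDR5, SLC4A1AP, DDX52 and METAP2 (r from 0.97 to 0.98).

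Other parts of the FAS pathway showed no shared direction. FASLG, the ligand, was listed at 0 in all 10 libraries. The adaptor FADD stood in DBTRG-05MG at 24.9 FPKM at 0 h and 31.9 FPKM at 48 h, and in U87 at 19.1 and 8.16 FPKM. The initiator caspase gene CASP8 had 13.7 and 11.7 FPKM in DBTRG-05MG at those times, and 7.66 and 4.90 FPKM in U87. CFLAR, which encodes the caspase-8 inhibitor c-FLIP, had 12.8 and 7.74 FPKM, and in U87 5.43 and 3.56 FPKM (mean change -0.58 ± 0.22, limma adjusted p = 0.337). Of the 10 pathway genes tested, 0 were called by limma at any time, beside 0.0081% of all genes at 6, 12 and 24 h and 0.0% at 48 h. At 48 h 1 was lower and 0 higher at an unadjusted limma p under 0.05, beside 12.2% of all genes in either direction. The pathway list was likewise drawn up with earlier results of these libraries in view, so nothing is read from its counts.

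TP53I3 encodes PIG3, a quinone oxidoreductase linked to oxidative stress in p53-dependent apoptosis, and lies on chromosome 2 (24077433 to 24085861, minus strand). DBTRG-05MG held it at 8.76, 7.88, 8.81, 9.44 and 8.05 FPKM, a spread of 1.2 times between the lowest and the highest library. U87 had 3.398, 5.08, 6.90, 5.07 and 2.93 FPKM. The U87 levels were highest at 12 h, at 2.03 times the start, and back below it at 48 h. DBTRG-05MG showed no such hump.

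PLK2 encodes Polo-like kinase 2, a stress-inducible kinase of the Polo family, and lies on chromosome 5 (58453982 to 58460260, minus strand). Its level in DBTRG-05MG was lower at each successive time, at 114, 93.2, 72.1, 56.6 and 41.4 FPKM. In U87 it was higher at each later time than at 0 h, at 25.5, 39.4, 34.0, 38.8 and 67.1 FPKM. DBTRG-05MG was well above U87 at 0 h and below it at 48 h. At 48 h the level was 0.362 times the start in DBTRG-05MG and 2.63 times in U87. The 48 h changes were -1.44 and 1.36, so the mean over both lines, -0.04 ± 0.52 (SE of the fit, n = 2 lines), hides both. The share of genes at least 2-fold higher at 48 h was 4.57% in DBTRG-05MG and 2.14% in U87. PLK2 and GDF15 made up that group among the 9 in U87, and GDF15 alone in DBTRG-05MG.

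The PLK2 promoter window held both a CRE half-site, the core letters TGACG read by CREB-family factors, and a p53 half-site. No other of the 16 windows searched held both, though SESN1 had each before a different start. The share of all promoter windows that hold both was not counted, so nothing is read from this. The sites are shown because cAMP is known to act through CREB and these genes are listed as p53 targets. The search covered both strands of the 250 bases before each RefSeq start site (GRCh38.p14), with 16 windows for 8 of the 9 genes (all but RRM2B). Each stretch of 30 bases runs 5′ to 3′ on the strand of the gene, with the match in capitals.
PLK2, p53 half-site 132 to 123 bases before the start (chr5:58460199-58460228, minus strand): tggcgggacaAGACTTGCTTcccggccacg
PLK2, CRE half-site 77 to 73 bases before the start (chr5:58460146-58460175, minus strand): gggcataggccgTGACGtgatgtcgcgtat
FAS, p53 half-site before the second listed start (chr10:88991299-88991328, plus strand): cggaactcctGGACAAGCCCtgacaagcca
SESN1, p53 half-site before the third listed start (chr6:109009018-109009047, minus strand): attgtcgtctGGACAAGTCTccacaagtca
BTG2, CRE half-site 210 to 206 bases before the start (chr1:203305297-203305326, plus strand): ggttcctagcacTGACGacagcgagcgatg

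A CRE half-site was found for PLK2, BTG2 and SESN1, in 3 of the 16 windows, and in 21.2% of all 35116 promoter windows of that length. The p53 half-site consensus was found for PLK2, FAS and SESN1, also in 3 windows, and in 5.57% of all windows. The full CRE, TGACGTCA, was in 0 of the 16 windows and in 1.65% of all, and the ATF4 composite element (TGATGNAAN) in 0 and in 3.13%. The CRE half-site lies inside the full CRE, so their counts overlap. The GDF15 window held none of the 4 motifs. A match is a string of letters and not a measured binding site. BTG2 and SESN1 stayed within 2-fold of their start in both lines on the log2(FPKM + 1) scale, and PLK2 did not. On that scale BTG2 in U87, at most 0.911 FPKM, could not be 2-fold lower. Any part of the motifs in these courses was not tested.

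BTG2 encodes an antiproliferative protein that promotes removal of poly(A) tails and lies on chromosome 1 (203305491 to 203309602, plus strand). Its levels lay far apart in the lines. DBTRG-05MG had 16.3, 14.6, 13.1, 15.4 and 14.2 FPKM, and U87 had 0.911, 0.498, 0.717, 0.582 and 0.504 FPKM. All later libraries were below 0 h in both lines. The U87 levels correspond to only about 14 to 25 fragments a library if the longest transcript is assumed, so differences among them are not resolved at this depth. BTG1, its paralogue with a like function, was expressed in both lines and stood at 39.6 FPKM in the U87 24 h library, between 16.7 FPKM at 12 h and 14.5 FPKM at 48 h.

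**Figure D3:**
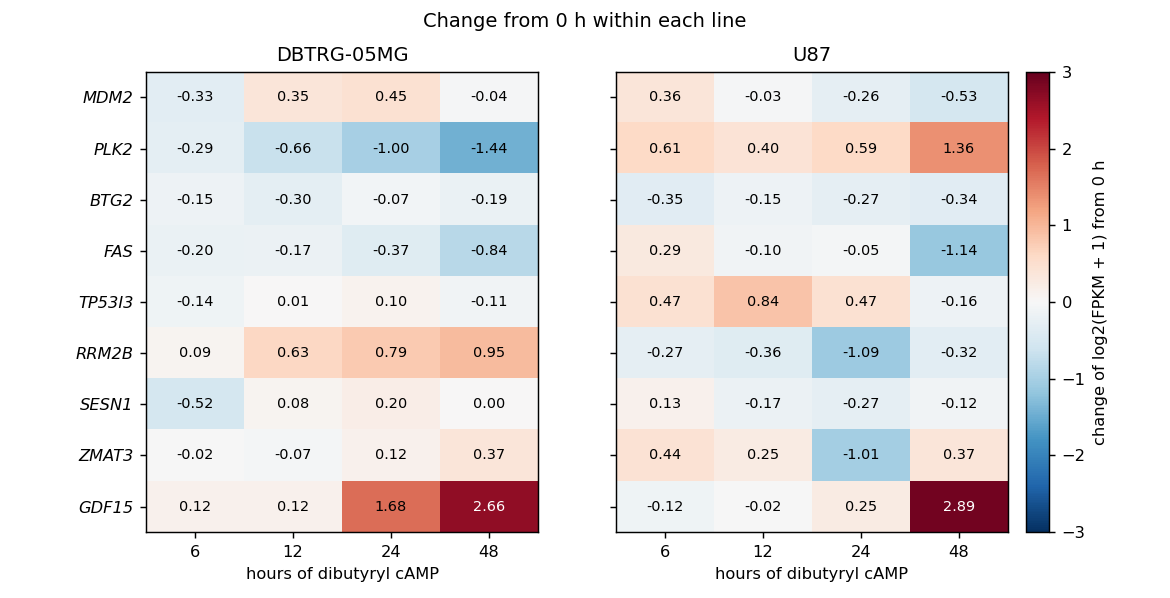
Change of log2(FPKM + 1) from 0 h of the 9 genes (rows) at 6, 12, 24 and 48 h (columns) in DBTRG-05MG (left) and U87 (right); red is higher and blue lower than 0 h, and each cell is 1 library against 1. The PLK2 row is blue in DBTRG-05MG (-1.44 at 48 h) and red in U87 (1.36), the RRM2B row runs the other way, and the GDF15 row is red in both at 48 h.

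MDM2 encodes the ubiquitin ligase that degrades p53 and closes its feedback loop. The gene lies on chromosome 12 (68808176 to 68850686, plus strand). DBTRG-05MG had 31.7, 25.03, 40.8, 43.6 and 30.8 FPKM, highest at 24 h and back at its start at 48 h. U87 had 8.06, 10.6, 7.85, 6.56 and 5.27 FPKM, highest at 6 h and lowest at 48 h. At 6 h the lines differed in direction, with changes of -0.33 and 0.36. MDM4, the MDM2 paralogue that also restrains p53, stayed between 2.76 and 5.45 FPKM in DBTRG-05MG, and in U87 between 1.73 and 3.19 FPKM.

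SESN1 encodes sestrin 1, a stress protein that restrains the growth kinase complex mTORC1. It lies on chromosome 6 (108986437 to 109094819, minus strand) and was the lowest of the 9 in DBTRG-05MG. That line had 5.34, 3.42, 5.69, 6.27 and 5.35 FPKM, with 6 h as the one low library. U87 had 2.50, 2.84, 2.11, 1.91 and 2.23 FPKM, a spread of 1.49 times. Its paralogue SESN2, known to answer to ATF4 as well as p53, stood in DBTRG-05MG at 13.3 FPKM at 0 h and 20.8 FPKM at 48 h, and in U87 at 13.4 and 8.02 FPKM, with changes of 0.61 and -0.68. SESN3, a target of FOXO factors, did not exceed 0.382 FPKM in U87 and reached 6.33 FPKM in DBTRG-05MG.

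ZMAT3 encodes a zinc-finger RNA-binding protein and lies on chromosome 3 (179017223 to 179072279, minus strand). It was the 1 gene of the 9 with a like level in both lines, with a ratio of 0.96 between them. DBTRG-05MG had 6.47, 6.36, 6.12, 7.14 and 8.64 FPKM. U87 had 7.18, 10.1, 8.71, 3.05 and 9.58 FPKM. The U87 24 h library alone was low, by 1.26 against 12 h and 1.39 against 48 h on the log2 scale, while the libraries on both sides were above the start. In U87 1.22% of the genes tested, 151 genes, dipped at least 2-fold at 24 h below both neighbours, beside 22 genes in DBTRG-05MG.

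RRM2B encodes p53R2, the p53-inducible small subunit of ribonucleotide reductase, which supplies deoxynucleotides outside S phase, and lies on chromosome 8 (102204502 to 102239118, minus strand). In DBTRG-05MG it was higher at each successive time, at 13.0, 13.9, 20.6, 23.1 and 26.0 FPKM. In U87 it was below its start at each later time, at 10.1, 8.24, 7.66, 4.23 and 7.92 FPKM, lowest at 24 h. The lines began close together and ended 48 h with DBTRG-05MG far above U87. The 48 h changes were 0.95 and -0.32, the latter -0.08 after median centring. RRM2 and RRM1, the S-phase small subunit and the large subunit of the same enzyme, ran the other way in DBTRG-05MG at 24 and 48 h. RRM2 stood there at 94.0, 127, 160, 55.0 and 17.7 FPKM, and RRM1 at 28.7 FPKM at 0 h and 6.65 FPKM at 48 h. In U87 RRM2 had 114 FPKM at 0 h and 86.9 FPKM at 48 h, and RRM1 had 83.6 and 51.3 FPKM. Neither passed the test (limma adjusted p = 0.464 for RRM2 and 0.291 for RRM1).

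In U87 at 24 h, a time with 1 library, RRM2B (-1.09) and ZMAT3 (-1.02) were at least 2-fold from 0 h. After each library was centred on its median these were -0.87 and -0.80. RRM2B was less than 2-fold below its neighbours there (-0.727 against 12 h and -0.77 against 48 h), so it is not among the 151 dipping genes. The 24 h library is the U87 library with the highest sum of heat shock and immediate early genes given above. The median change of that list there was -0.19, beside -0.15 over all genes. Of its 8 tested genes, 0 were at least 2-fold higher and 1 was at least 2-fold lower than at 0 h. The 151 dipping genes had a median longest transcript of 1314 bases, beside 3633 bases over all genes, whereas that of ZMAT3 has 9406 bases. Their part in the dip was not tested.

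Counted by size on the log2(FPKM + 1) scale, 0 of the 9 genes were at least 2-fold from 0 h at 6 h in either line, where the share of all genes was 1.98% in DBTRG-05MG and 5.16% in U87. At 12 h the count was again 0 in both, beside 4.08 and 5.28% of all genes. At 24 h it was 2 in DBTRG-05MG (GDF15 and PLK2, the latter just past the limit at -1.002) and 2 in U87 (RRM2B and ZMAT3), beside 4.78 and 6.65%. At 48 h it was 2 in DBTRG-05MG (GDF15 and PLK2) and 3 in U87 (GDF15, PLK2 and FAS), beside 9.72 and 6.45%. Since these contrasts entered the choice of the genes, nothing is read from the counts. In plain FPKM, TP53I3 in U87 at 12 h (2.03 times its start) and RRM2B in DBTRG-05MG at 48 h (2.005 times) would also count.

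Between the lines, the DBTRG-05MG libraries lay wholly above the U87 libraries for 7 of the 9 genes, all but PLK2 and ZMAT3. The same held for 27.1% of all genes tested. By the ratio of the geometric means of FPKM + 1 these were GDF15 (24.2), BTG2 (9.59), MDM2 (4.09), FAS (2.67), RRM2B (2.34), SESN1 (1.85) and TP53I3 (1.74). The added 1 compresses the ratio of BTG2, whose mean was 14.7 FPKM in DBTRG-05MG against 0.642 FPKM in U87. Within DBTRG-05MG the order of mean levels was GDF15, PLK2, MDM2, RRM2B, FAS, BTG2, TP53I3, ZMAT3 and SESN1. The means do not settle the order of FAS (15.4 ± 3.32 FPKM, SD over 5 times) and BTG2 (14.7 ± 1.23 FPKM). Nor do they settle that of RRM2B (19.3 ± 5.71 FPKM) and FAS, since the SD holds the course over time. RRM2B stood below FAS at 0 h (13.0 against 19.0 FPKM) and above it at 48 h (26.0 against 10.2 FPKM). In U87, GDF15 (mean 41.7 FPKM, range 16.0 to 136) and PLK2 (41.0 ± 15.6 FPKM) had the highest means. ZMAT3, MDM2 and RRM2B followed at 7.72, 7.68 and 7.63 FPKM, and their order is likewise not settled. The courses of PLK2 and RRM2B, with all 4 later libraries on opposite sides of 0 h in the 2 lines, were shared by 4.97% of all genes.

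The wider p53 programme was followed with 69 other known targets, a list also drawn up with earlier results in view, of which 62 were tested. By limma with Benjamini-Hochberg adjustment 0 of the 62 were called at 6, 12, 24 or 48 h, and the smallest adjusted p at 48 h was 0.184. The called share of all genes was 0.0081% at each of 6, 12 and 24 h (IL11 alone) and 0.0% at 48 h. At an unadjusted p under 0.05, 1 was higher and 2 were lower at 6 h, 1 and 1 at 12 h, 2 and 1 at 24 h, and 1 and 4 at 48 h. The share of all genes at that p, in either direction, was 5.31, 4.47, 3.51 and 12.2% at these times. At 48 h 17 were higher in both lines, 14 lower in both and 31 went opposite ways. Their median change was 0.24 in DBTRG-05MG and -0.19 in U87, beside 0.02 and -0.15 over all genes. A difference in trend between the lines was called for 0 of the 62 (smallest limma adjusted p = 0.25), and for 0.0162% of all genes. At an unadjusted p under 0.05 there were 12 of the 62, beside 13.4% of all genes.

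**Figure D4:**
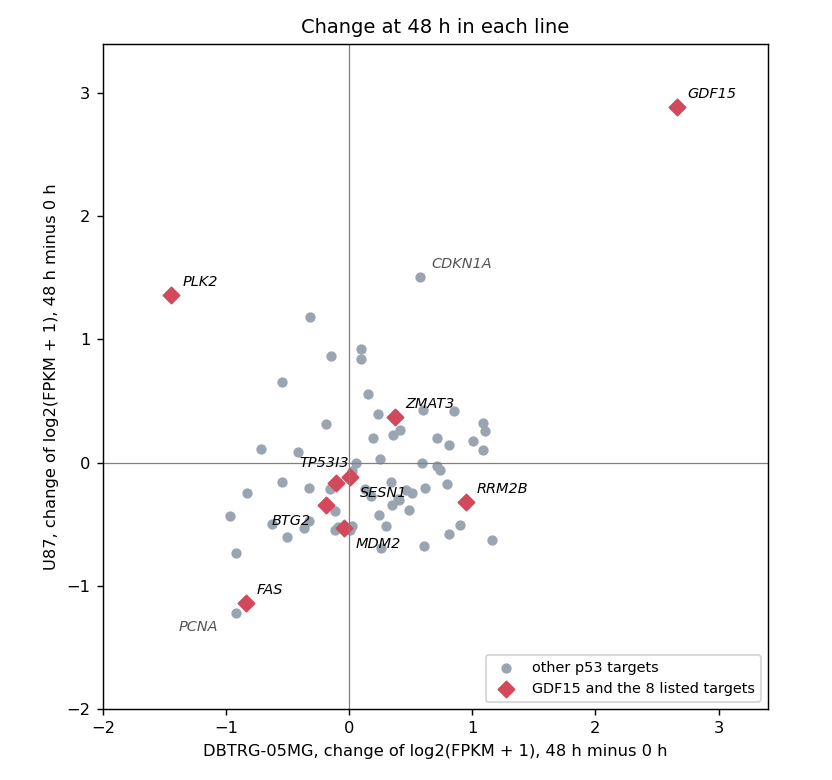
Change of log2(FPKM + 1) from 0 to 48 h in DBTRG-05MG (horizontal) and U87 (vertical) for the 9 genes (red diamonds) and 62 other p53 targets (grey circles); each point is 1 gene. GDF15 stands alone at upper right (2.66 and 2.89), PLK2 at upper left (-1.44 and 1.36), and FAS lies near PCNA at lower left.

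By role, 3 of the 4 DNA repair and nucleotide targets were lower in both lines at 48 h, with a median change of -0.71 in each line. For the counts by role the share of all genes was likewise not counted, so nothing is read from them. PCNA, the sliding clamp of DNA replication, stood in DBTRG-05MG at 41.4 FPKM at 0 h and 21.5 FPKM at 48 h, and in U87 at 28.8 and 11.8 FPKM (mean change -1.07 ± 0.27, limma adjusted p = 0.184). POLH, a translesion polymerase, had 9.92 and 4.76 FPKM in DBTRG-05MG at those times, and 4.41 and 2.26 FPKM in U87 (limma adjusted p = 0.188). DDB2, a damage sensor, had 69.5 and 48.6 FPKM in DBTRG-05MG, and 58.6 and 38.2 FPKM in U87 (limma adjusted p = 0.413). PIDD1 (listed as PIDD) and EPS8L2, the other targets that the naming rule gave as lower in both lines, had mean changes of -0.56 and -0.70 (limma adjusted p = 0.371 and 0.372). Of 14 death receptor and apoptosis targets, 4 were higher in both lines and 4 lower in both. TNFRSF10B, the TRAIL receptor DR5 and also a target of DDIT3, had 62.0 FPKM at 0 h and 113 FPKM at 48 h in DBTRG-05MG, and 28.3 and 38.2 FPKM in U87 (mean change 0.63 ± 0.28, limma adjusted p = 0.412).

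CDKN1A, which encodes the cell cycle inhibitor p21 and is the best known p53 target, differed from GDF15 in timing in U87. In U87 it stood at 140, 58.6, 61.5, 225 and 400 FPKM, so that it was below its start at 6 and 12 h and above it at 24 h, when GDF15 was still near its start. In DBTRG-05MG it stood at 293, 271, 253, 350 and 438 FPKM, highest at 48 h and next at 24 h, as GDF15 was. Its mean change at 48 h was 1.04 ± 0.46 (limma adjusted p = 0.411). The lysosomal enzyme gene FUCA1, the lipid transfer gene PLTP and TRAF4 completed the targets that the naming rule gave as higher in both lines at 48 h, with mean changes of 0.51, 0.70 and 0.34 and limma adjusted p from 0.317 to 0.545. PLK1, the mitotic paralogue of PLK2, stood in DBTRG-05MG at 94.9 FPKM at 0 h and 17.2 FPKM at 48 h, and in U87 at 118 and 48.2 FPKM (limma adjusted p = 0.144), and so was lower in both lines where PLK2 was not.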

How the data were processed

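The deposited FPKM table was made by the authors with HISAT, Bowtie2 and RSEM on hg38, per the submitters' processing notes, with no versions. Neither the labels nor the header name the unit. A value of 0.002 stood for 0, and 25 symbols turned into dates by a spreadsheet were kept. The labels give 1 mM and times to 48 h, unlike the series description, and were followed. The sample descriptions of U87 name the other line, whereas their cell line field gives U87. The members and gene lists were chosen with earlier results of these data known.

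limma 3.58.1 (R 4.3.3) was fitted to log2(FPKM + 1) of the 12352 genes that averaged 1 FPKM or more. The model held a term per line, as a block, and a term per time, 4 residual degrees of freedom, empirical Bayes moderation with a mean-variance trend and Benjamini-Hochberg adjustment at 0.05. Its spread is the disagreement between the lines over all times (median SD 0.273), so p-values cover 2 lines and no replicate cultures. Pairing by line comes from the design. The 4 comparisons share the 0 h libraries. Trends were compared as the product of line and rank of time. The fit by time was tried on simulated data for its 48 h comparison alone, with the same change added in both lines. The trend fit was not tried so. The naming rule took fixed genes and, at 48 h, the 5 higher and 5 lower other targets (averaging 5 FPKM or more) ranked by the smaller of their changes in the lines. PLK1, RRM1, RRM2, SESN2, SESN3 and BTG1 were fixed paralogues. Positions are from GENCODE release 29. Alternatives were the pseudocount, the filter, 2 scalings, no trend, no block, hours for rank, a 1.5-fold limit and leaving out each library. Python 3.11.15 with pandas 2.3.3, numpy 2.4.6 and matplotlib 3.10.9 served for the rest. A gene of the naming rule and the list that held it are not reported here.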

Additional observations from a re-analysis of the deposited data

Results flagged for a closer look

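PLK2 and RRM2B are given because every later library of one line lay on the other side of 0 h from every later library of the other line. The PLK2 change at 48 h was -1.44 in DBTRG-05MG and 1.36 in U87. The RRM2B change at 48 h was 0.95 in DBTRG-05MG and -0.32 in U87, and the latter was -0.08 after each library was centred on its median. Both genes were chosen with these libraries in view, so the difference between the lines was not tested on values independent of that choice. The share of all genes tested with such opposite courses was 4.97%. No group held enough libraries for a check on single outlying values.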

How the results depend on the processing

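By limma, the count of all genes called at 6, 12, 24 and 48 h was 1, 1, 1 and 0. It was 3, 3, 2 and 0 with a pseudocount of 0.1 FPKM, 0, 3, 2 and 0 with no filter on low values, 0 at every time after median centring, and 0 at every time without the replicate block, that is without pairing by line. Leaving out 1 library at a time gave 0 to 2 genes at 6 h, 0 to 3 at 12 h, 0 to 3 at 24 h and 0 to 2 at 48 h, the last with 2 without either 24 h library. The other p53 targets stayed at 0 calls at each time under all alternatives run. For differences in trend they stayed at 0 except without the U87 0 h library, where 1 was called (SERTAD1, adjusted p = 0.0495), a range of 0 to 1. With a 1.5-fold limit the count of the 9 genes was 2 at 12 h and 4 at 48 h in DBTRG-05MG and 1 at 6 h and 1 at 12 h in U87. The count at 24 h in U87 was 0 after median centring and 1 after upper quartile scaling. Centring moved the median of all genes by 0.22 at 24 h and 0.24 at 48 h in U87 and by 0.10 at 6 h in DBTRG-05MG. Relative to it, the U87 changes at 48 h were 3.13 for GDF15, 1.604 for PLK2 and -0.90 for FAS. Of 216 alternative values for the 72 changes of the 9 genes, 11 differed in sign, all for changes of at most 0.16 in size. The low U87 levels of BTG2 moved most with the pseudocount, to -0.74 at 48 h. The cause of these shifts was not tested.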
